A study of Mus musculus with 6 samples.

Results

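The inflammasome and pyroptosis genes examined here were 10 genes of the deposited count table of 24062 genes, chosen by symbol: the sensors Nlrp3, Nlrc4, Naip2, Naip5 and Aim2, the adaptor Pycard, the inflammatory caspases Casp1 and Casp4, and the membrane-rupture genes Gsdmd and Ninj1. All 10 were in the table, and all 10 passed the filter on low counts. RNA was sequenced from mouse hematopoietic cells transformed by a retrovirus carrying the MLL-AF9 fusion, a driver of acute myeloid leukemia in people. The starting cells were lineage-negative, that is, depleted of cells with markers of mature blood lineages. One group of 3 libraries was labelled A20 KO and came from A20 f/f Rosa Cre-ER mice, in which tamoxifen-activated Cre can delete the floxed A20 gene. The other group of 3 libraries was labelled A20 WT and came from A20+/+ Rosa Cre-ER mice. Both groups thus carried Cre-ER and MLL-AF9, and both received 1 µM 4-hydroxytamoxifen for 48 h. All cells grew in 10% serum with human IL-6, mouse IL-3 and mouse SCF at 10 ng/mL each. The labels name no age, clone or strain background for the cells, and they do not say whether replicates came from separate cultures or animals. The p-values therefore measure only how far these libraries spread, which may be technical.

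Inflammasomes are cytosolic complexes in which a sensor recruits caspase-1. NLRP3 responds to potassium efflux and membrane damage, AIM2 binds cytosolic DNA, and in the mouse NAIP5 binds bacterial flagellin and NAIP2 a rod protein of bacterial secretion systems, both passing the signal to NLRC4. ASC, encoded by Pycard, bridges sensor and caspase-1, which matures IL-1β and IL-18 and cuts gasdermin D. Mouse caspase-11, encoded by Casp4, binds bacterial lipopolysaccharide and cuts gasdermin D directly. The gasdermin D fragment forms membrane pores, and NINJ1 then clusters to tear the membrane open. In myeloid cells several of these genes are kept low until NF-κB or interferon signalling induces them, and A20, encoded by Tnfaip3, is known in mouse macrophages to restrain both NF-κB and NLRP3.

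RefSeq start-site windows on GRCm38.p6, the C57BL/6J reference, were found for 9 of the 10 genes, with 11 windows in all, each running from 250 bases before to 50 bases after a start site. The stretches of 5 genes are shown, and no link between sequence and level was tested. The genes are Nlrc4, with the largest difference, and Naip2 and Naip5, neighbouring copies that behaved unlike each other. Casp4 and Nlrp3, which match the NF-κB motif, are the others. Each stretch is the 200 bases just before the start site, 5′ to 3′, and capitals mark a match to a searched motif. They lie at chr17:74459109-74459308, minus strand for Nlrc4, chr13:100202123-100202322, minus strand for Naip2, chr13:100247337-100247536, minus strand for Naip5, chr9:5308649-5308848, plus strand for Casp4 and chr11:59541369-59541568, plus strand for Nlrp3.
Nlrc4: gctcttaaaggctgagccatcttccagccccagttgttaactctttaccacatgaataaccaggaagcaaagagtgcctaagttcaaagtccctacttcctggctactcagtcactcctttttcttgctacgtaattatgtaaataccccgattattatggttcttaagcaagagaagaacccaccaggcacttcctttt
Naip2: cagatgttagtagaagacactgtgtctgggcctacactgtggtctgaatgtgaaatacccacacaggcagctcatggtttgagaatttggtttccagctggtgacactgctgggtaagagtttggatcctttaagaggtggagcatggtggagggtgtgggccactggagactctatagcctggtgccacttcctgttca
Naip5: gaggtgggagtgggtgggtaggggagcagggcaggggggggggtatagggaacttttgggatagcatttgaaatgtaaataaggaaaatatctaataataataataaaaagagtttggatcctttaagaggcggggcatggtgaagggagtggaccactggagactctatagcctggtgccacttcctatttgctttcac
Casp4: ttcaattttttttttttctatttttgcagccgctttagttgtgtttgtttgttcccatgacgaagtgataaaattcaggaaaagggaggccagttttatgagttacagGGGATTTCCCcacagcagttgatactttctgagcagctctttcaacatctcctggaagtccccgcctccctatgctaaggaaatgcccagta
Nlrp3: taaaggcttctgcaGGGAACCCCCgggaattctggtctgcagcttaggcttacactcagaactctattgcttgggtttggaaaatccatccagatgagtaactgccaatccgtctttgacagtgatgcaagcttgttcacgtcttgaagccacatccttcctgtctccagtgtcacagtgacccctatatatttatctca
Motifs were searched on both strands of the windows. The NF-κB motif (GGGA, any 4 bases, CC) matched 3 of the 11 windows, against 20.7% of 32851 windows of all genes. These were the Casp4 windows at both annotated starts, 11 bases apart, through GGGATTTCCC, and the upstream one of 2 Nlrp3 starts, 1117 bases apart, through GGGAACCCCC. The PU.1 motif GAGGAAGT matched Aim2 and Pycard (3.20% of all windows). The interferon element (GAAA, any 2 bases, GAAA; 3.44%), the ETS-IRF composite (GGAA, any 2 bases, GAAA; 2.72%), the GAS element TTCNNNGAA (8.30%) and the C/EBP motif TTGCNNCAA (2.08%) matched none of the 11. The Casp4 stretch matches on both strands, so those matches overlap; the others did not overlap. The Naip2 and Naip5 stretches shared 128 of 200 bases in an alignment with 62 mismatches and 20 gap bases, and their longest shared run was 34 bases.

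The 6 libraries held 16113320 to 25415274 counted reads. Tnfaip3, the targeted gene, had 100.1, 74.1 and 79.1 CPM in KO-labelled libraries, compared with 7.39, 8.67 and 8.24 CPM in WT-labelled libraries. The table gives 1 count per gene, so it does not measure the floxed exons, but the total goes against the label, and the groups are called KO-labelled and WT-labelled throughout. The female transcript Xist had 0 to 4.77 CPM in KO-labelled and 564 to 2109 CPM in WT-labelled libraries, and the Y-linked Ddx3y 78.5 to 89.2 CPM in KO-labelled and 0 to 0.80 CPM in WT-labelled libraries, so genotype label and donor sex cannot be told apart. Replicate 1 stood apart in both groups: Gapdh had 2716 CPM in KO-labelled and 2645 CPM in WT-labelled replicate 1, against 167 to 254 CPM in the other 4 libraries. KO-labelled replicates 2 and 3 differed little more than counting noise (chi-square per degree of freedom 2.37, against 25.2 for WT-labelled replicates 2 and 3 and 79.7 to 379.5 for the other 13 pairs).

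Nlrc4, the NAIP sensor gene Naip2 and the rupture gene Ninj1 were higher in the KO-labelled libraries, while the genes of the shared adaptor, caspase-1 and gasdermin D showed no call. Of the 10 genes, 3 rose (Nlrc4, Naip2 and Ninj1), 0 fell and 7 did not pass (edgeR's quasi-likelihood test, Benjamini-Hochberg adjusted p under 0.05 over 12126 tested genes). None of them was lower at an unadjusted p under 0.05 either (0 of 10, against 20.3% of all tested genes), nor by DESeq2 or limma-voom (0 each); DESeq2 called 5 higher (17.0% of all genes higher and 16.7% lower) and limma-voom 4 (14.3% and 12.9%). Counts were also simulated with the spread that edgeR estimated, with 100 genes changed 2-fold and 100 changed 4-fold. There 43 of 198 DESeq2 calls were false, against 6 of 128 for edgeR and 4 of 120 for limma-voom. Far fewer genes changed there than were called in the real libraries. The shares of false calls are therefore a caution on the DESeq2 calls of Nlrp3 and Casp4 and do not decide them. In the same simulation edgeR called 39% of the 2-fold and 83% of the 4-fold changes. The shares were 35% and 81% for limma-voom, and 68% and 87% for DESeq2. The edgeR test thus missed most 2-fold changes there, so genes without a call may still differ. Over all tested genes 27.3% were called, 13.7% higher and 13.7% lower, so 3 of 10 is near the background share. The median log2 fold change of the 10 genes was 0.46, beside −0.04 over all tested genes. In 5 of the 10 genes, the 3 called ones with Nlrp3 and Casp4, the groups did not overlap and KO-labelled values were higher; 47.6% of all tested genes had no overlap, 24.1% higher and 23.5% lower.

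The count depended on WT-labelled replicate 1. Without it 5 of the 10 rose (Nlrp3 and Casp4 joined) and 3 fell (Naip5, Aim2 and Casp1), where 22.0% of all tested genes were called higher and 20.8% lower. Replicates 2 and 3 alone gave the same counts, with 25.8% of all genes higher and 27.1% lower. The KO-labelled replicates 2 and 3 differed little more than counting noise (chi-square per degree of freedom 2.37). Adjusted p-values from replicates 2 and 3 alone, here and below, may therefore reflect mostly technical spread in that group. Without WT-labelled replicate 2, 4 rose and 0 fell (all genes 9.87% and 9.95%), and without WT-labelled replicate 3, 2 rose and 0 fell (9.86% and 10.2%). Leaving out KO-labelled replicate 1 (8.91% and 9.49%), 2 (7.60% and 7.41%) or 3 (7.89% and 7.54%) left 3 higher and 0 lower, as did a replicate block (8.16% and 8.53%).

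**Figure D1:**
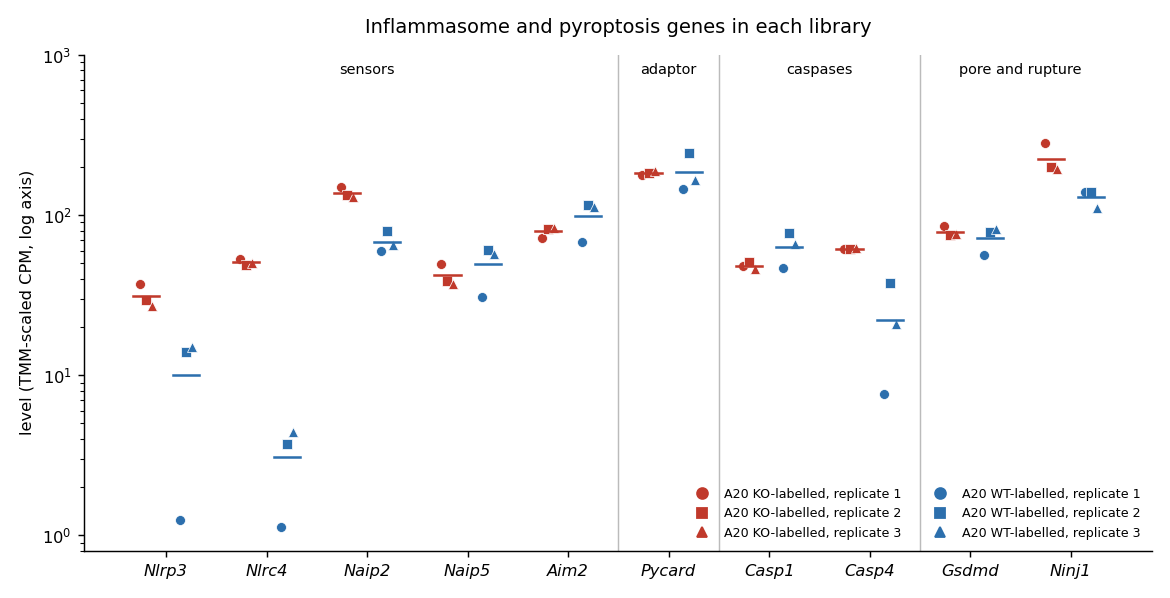
Level of each of the 10 genes (TMM-scaled CPM, log axis) in the 3 KO-labelled (red, left) and 3 WT-labelled (blue, right) libraries; marker shapes are replicates 1 to 3 and bars are group means. Nlrc4 sits between 48.9 and 52.9 CPM in KO-labelled libraries, above 4.42 CPM, the highest WT-labelled value, and WT-labelled replicate 1 is lowest in its group for 9 of the 10 genes.

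Nlrc4, the hub that NAIP sensors activate, showed the largest difference of the set. It had 52.9, 48.9 and 50.2 CPM in KO-labelled libraries, compared with 1.13, 3.73 and 4.42 CPM in WT-labelled libraries. The KO-labelled values lay within 1.08-fold of each other, and the lowest of them was 11.1-fold above the highest WT-labelled value. The means were 50.6 ± 2.03 CPM in KO-labelled and 3.09 ± 1.74 CPM in WT-labelled libraries (SD, n = 3 each), a ratio of 16.4. On the log2 scale Nlrc4 rose by 4.05 with SE 0.45 (edgeR, adjusted p = 0.0010), which ranked 253 from the top among 12126 tested genes. It was 3.58 in replicates 2 and 3 alone, and the replicate 1 pair, which allows no test, gave 5.55. The gene (ENSMUSG00000039193) spans 74425438 to 74459142 of chromosome 17 in mm10, on the minus strand, with no exonic overlap with another annotated gene. It passed the test in all 17 alternative settings, with log2 fold changes of 3.58 to 4.41 and adjusted p of 2.1e-19 to 0.025.

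Naip2 also rose. It had 148.9, 133 and 129 CPM in KO-labelled libraries, compared with 59.3, 80.0 and 64.6 CPM in WT-labelled libraries, with no overlap. The means were 137 ± 10.3 CPM in KO-labelled and 68.0 ± 10.7 CPM in WT-labelled libraries (SD, n = 3 each), giving a log2 fold change of 1.01 with SE 0.15 (edgeR, adjusted p = 0.0031). It was called in all 17 alternatives (adjusted p 1.5e-07 to 0.037). The gene lies on chromosome 13 at 100144063 to 100202092, minus strand.

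Naip5, the flagellin sensor 9.65 kb from Naip2 on the same strand (100211739 to 100246323), did not follow it. It had 49.7, 38.8 and 37.3 CPM in KO-labelled libraries, compared with 30.9, 60.6 and 57.3 CPM in WT-labelled libraries, so the groups overlapped. The log2 fold change was −0.24 (95% interval −0.87 to 0.39, adjusted p = 0.55 by edgeR). Its sign was not the same in each replicate: the replicate 1 pair gave 0.68, and replicates 2 and 3 alone gave −0.65, a call there (adjusted p = 0.0011; range over 17 alternatives 0.0011 to 1.00).

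The ratio of Naip2 to Naip5 reads within a library needs no scaling between libraries. It was 3.00, 3.43 and 3.47 in KO-labelled libraries, against 1.92, 1.32 and 1.13 in WT-labelled libraries, without overlap. The mean log2 ratio was 1.72 ± 0.12 in KO-labelled and 0.51 ± 0.39 in WT-labelled libraries, a difference of 1.21 (exact two-sided permutation p = 0.1, the smallest that 3 against 3 libraries allow, and 0.1 adjusted over the 4 ratios computed). The ratio of Nlrc4 to Naip2 reads was 0.35, 0.37 and 0.39 in KO-labelled libraries, against 0.019, 0.047 and 0.068 in WT-labelled libraries (exact two-sided permutation p = 0.1, the smallest possible). NAIP copies are near-identical in part: 32.8% of the 31-base words of Naip2 transcripts and 53.1% of those of Naip5 also occur in transcripts of other genes, so reads could be split between copies and the single-gene values are uncertain. Summed over the 5 NAIP genes in the table, which does not depend on a split among those 5, the level was 222, 185 and 183 CPM in KO-labelled libraries, against 96.6, 155.5 and 136 CPM in WT-labelled libraries, a ratio of means of 1.52 without overlap (exact two-sided permutation p = 0.1, the smallest possible).

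Nlrp3, the sensor that A20 is known to restrain in macrophages, was higher in every KO-labelled library but did not pass the test. It had 37.0, 29.4 and 27.0 CPM in KO-labelled libraries, compared with 1.25, 14.0 and 15.0 CPM in WT-labelled libraries. WT-labelled replicate 1 lay 11.98-fold below replicate 3 of its own group, the widest spread within a group among the 10 genes. The log2 fold change was 1.63 (95% interval −0.10 to 3.37, adjusted p = 0.15 by edgeR). In replicates 2 and 3 alone it was 0.94 and called (adjusted p = 8.0e-04), it was also called without WT-labelled replicate 1 (1.11, adjusted p = 0.0026) and by DESeq2 (adjusted p = 0.046), and over 17 alternatives the adjusted p ranged up to 0.33. Nlrp3 lies on chromosome 11 at 59541568 to 59566956, plus strand.

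Aim2, the DNA sensor, was not called and its groups overlapped. It had 72.1, 82.0 and 83.0 CPM in KO-labelled libraries, compared with 67.8, 114.7 and 113.0 CPM in WT-labelled libraries. The log2 fold change was −0.32 (95% interval −0.82 to 0.18, adjusted p = 0.32 by edgeR). Without WT-labelled replicate 1 it was −0.52 and called (adjusted p = 0.0069; range over 17 alternatives 0.0016 to 0.74). The gene spans 173350879 to 173466040 of chromosome 1, plus strand.

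Pycard, the adaptor that all ASC-dependent inflammasomes share, had the smallest change of the set. It had 178.4, 183.8 and 187 CPM in KO-labelled libraries, compared with 146, 243.9 and 166 CPM in WT-labelled libraries, which enclosed the KO-labelled values on either side. The log2 fold change was −0.02 (95% interval −0.49 to 0.45, adjusted p = 0.96 by edgeR). The ratio of Nlrc4 to Pycard reads was 0.30, 0.27 and 0.27 in KO-labelled libraries, against 0.0077, 0.015 and 0.027 in WT-labelled libraries, higher in every KO-labelled library (exact two-sided permutation p = 0.1, the smallest possible). An antisense gene, Gm45205, overlaps 12.8% of the exonic bases of Pycard (chromosome 7, 127989708 to 127993867, minus strand), and the strand setting of the counting is not stated in the labels.

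The caspase genes Casp1 and Casp4 are neighbours on chromosome 9, 1.56 kb apart and on the same plus strand (5298517 to 5307265 and 5308828 to 5336783). Casp1 had 48.0, 50.7 and 46.2 CPM in KO-labelled libraries, compared with 46.8, 77.1 and 66.1 CPM in WT-labelled libraries, with an overlap through WT-labelled replicate 1. Its log2 fold change was −0.39 (95% interval −0.84 to 0.06, adjusted p = 0.18 by edgeR). Without WT-labelled replicate 1 it was −0.56 and called (adjusted p = 0.0061; range over 17 alternatives 0.0045 to 0.61).

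Casp4, the gene of the lipopolysaccharide sensor caspase-11, was steady in one group and scattered in the other. It had 61.3, 61.3 and 62.1 CPM in the KO-labelled libraries, within 1.01-fold, compared with 7.64, 37.8 and 20.8 CPM in WT-labelled libraries, within 4.95-fold. The groups did not overlap, and the lowest KO-labelled value was 1.62-fold the highest WT-labelled value. The log2 fold change was 1.48 (95% interval 0.32 to 2.65), with an unadjusted p of 0.020 and an adjusted p of 0.064 by edgeR, just short of the threshold. It was called by DESeq2 (adjusted p = 0.0077), by limma-voom (0.030), without WT-labelled replicate 1 (log2 fold change 1.08, 0.010) or 2 (2.10, 0.027), and in replicates 2 and 3 alone (1.06, 0.012); over 17 alternatives the range was 0.0077 to 0.17.

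Within a library, the ratio of Casp4 to Casp1 reads was 1.28, 1.21 and 1.34 in KO-labelled libraries, against 0.16, 0.49 and 0.31 in WT-labelled libraries. Casp4 reads thus outnumbered Casp1 reads in every KO-labelled library and were outnumbered in every WT-labelled library. The difference in mean log2 ratio was 2.12 (exact two-sided permutation p = 0.1, the smallest possible, and 0.1 adjusted over 4 ratios), and 1.70 in replicates 2 and 3 alone. Casp12, the next caspase gene downstream of Casp4 by 8.65 kb, stayed at or below 0.23 CPM in all 6 libraries.

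Ninj1, which encodes the membrane rupture protein, rose. It had 279.8, 200.05 and 194 CPM in KO-labelled libraries, compared with 138.3, 138.5 and 111 CPM in WT-labelled libraries, without overlap. The means were 225 ± 47.8 CPM in KO-labelled and 129 ± 15.7 CPM in WT-labelled libraries (SD, n = 3 each). On the log2 scale it rose by 0.80 with SE 0.18 (edgeR, adjusted p = 0.018), and by 0.64 in replicates 2 and 3 alone. Leaving out WT-labelled replicate 3 ended the call (0.70, adjusted p = 0.066), as did replicates 2 and 3 summed in each group (adjusted p = 0.092; range over 17 alternatives 5.3e-04 to 0.092). Ninj1 spans 49187485 to 49196244 of chromosome 13, plus strand.

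Gsdmd, the pore-forming substrate of both caspases, was not called. It had 85.3, 75.3 and 75.7 CPM in KO-labelled libraries, compared with 56.2, 78.0 and 82.2 CPM in WT-labelled libraries. The KO-labelled range overlapped the WT-labelled range, and the log2 fold change was 0.13 (95% interval −0.27 to 0.52, adjusted p = 0.62 by edgeR). Its sign turned to −0.10 in replicates 2 and 3 alone, and to −0.02 without WT-labelled replicate 1, with no call in either (edgeR adjusted p = 0.28 and 0.89). Gsdmd lies on chromosome 15 at 75862327 to 75867408, plus strand.

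**Figure D2:**
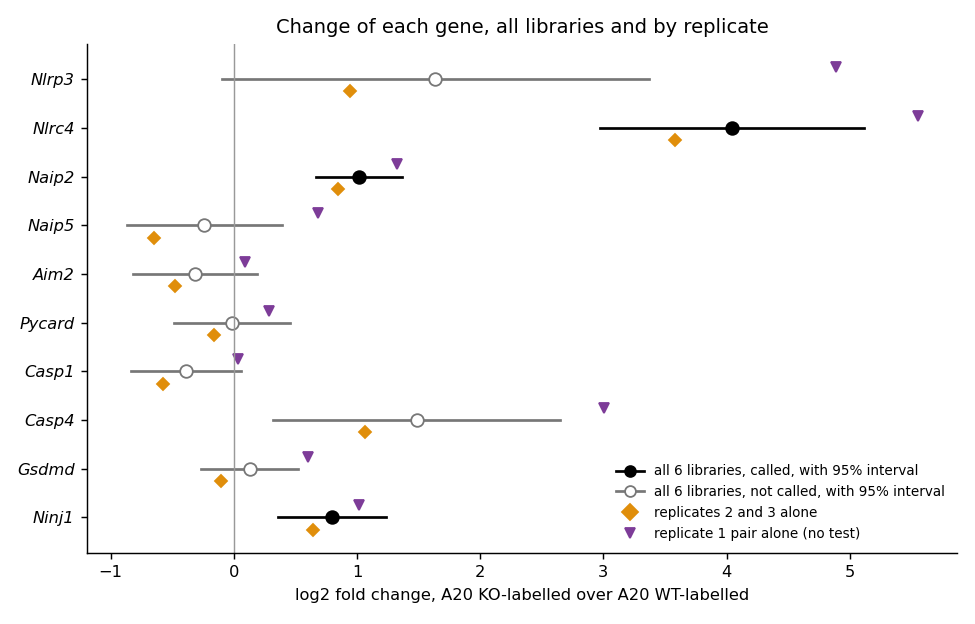
Log2 fold change of each gene, KO-labelled over WT-labelled: circles with 95% intervals use all 6 libraries (filled where called), diamonds use replicates 2 and 3 alone, and triangles are the ratio of the replicate 1 pair. In all 10 genes the replicate 1 pair lies to the right of replicates 2 and 3, and Nlrc4 lies above 3.5 in each.

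Compared per kilobase of all annotated exon, the membrane rupture gene had the highest value of the set and the sensors Nlrc4, Naip5 and Nlrp3 were among the lowest. For Pycard this length was 3800 bases of a gene spanning 4160. A shorter transcript would raise its value, so the order of Ninj1 and Pycard depends on the annotation. In KO-labelled libraries the levels per length were 143 ± 30.4 for Ninj1, 48.2 ± 1.19 for Pycard, 33.1 ± 2.38 for Gsdmd, 32.3 ± 1.53 for Casp1, 28.3 ± 2.13 for Naip2, 22.6 ± 1.73 for Aim2, 16.6 ± 0.12 for Casp4, 10.5 ± 0.42 for Nlrc4, 8.06 ± 1.30 for Naip5 and 7.68 ± 1.29 for Nlrp3 (CPM per kb, SD, n = 3). Neighbours in that order were apart in all 3 libraries except Gsdmd and Casp1, and Naip5 and Nlrp3, whose ranges overlapped. In WT-labelled libraries Ninj1 (82.4 ± 9.98) again led, Nlrc4 (0.64 ± 0.36) came last, and Naip2 (14.0 ± 2.21) stood below Aim2 (28.1 ± 7.59), the reverse of the KO-labelled order. The ranges of Pycard, Casp1, Gsdmd and Aim2, and those of Naip5, Casp4, Nlrp3 and Nlrc4, overlapped from one to the next there, except that Nlrp3 and Nlrc4 overlapped only through WT-labelled replicate 1. With the longest transcript as the length, the Casp4 level per length was 32.4 in KO-labelled and 11.6 in WT-labelled libraries, about level with Casp1 in the KO-labelled order.

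**Figure D3:**
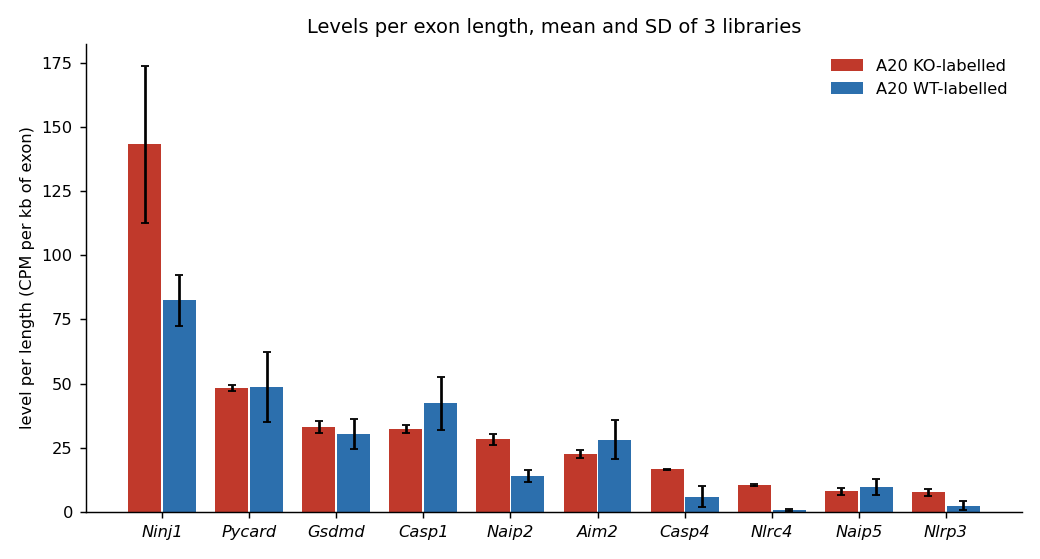
Mean level per length (TMM-scaled CPM per kb of exon) of each gene in KO-labelled (red, left) and WT-labelled (blue, right) libraries, ordered by the KO-labelled mean; error bars are SDs of 3 libraries. By this length Ninj1 leads in both groups, at 143 in KO-labelled and 82.4 in WT-labelled libraries, an order that depends on the exon length annotated for Pycard.

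Myeloid maturation markers varied with the same libraries. Of the 12 monocyte and macrophage markers listed, 11 were lowest in replicate 1 among the WT-labelled libraries, as were 9 of the 10 inflammasome genes, against 40.8% of all tested genes. Of the same 12 markers, 12 were highest in replicate 1 among the KO-labelled libraries, as were 6 of the 10 inflammasome genes, against 45.3% of all tested genes. The growth factor receptor gene Csf1r had 353, 134 and 134 CPM in KO-labelled libraries, compared with 2.84, 36.2 and 35.3 CPM in WT-labelled libraries, and the lysozyme gene Lyz2 had 1019, 590.05 and 598 CPM in KO-labelled, against 243, 2705 and 1889 CPM in WT-labelled libraries. The markers did not move one way between groups: 2 rose (Cd14 and Csf1r), 4 fell (Cx3cr1, Mrc1, Fcgr1 and Mertk) and 6 were not called, and their summed level was 3503 to 6003 CPM in KO-labelled and 1316 to 5919 CPM in WT-labelled libraries. Their part in the inflammasome results was not tested, and in bulk RNA fewer cells of a type and less RNA per cell cannot be told apart.

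Markers of mature lineages other than monocytes were mostly low or absent. Of 9 B, T and NK cell markers 5 had no read in any library, among them Cd3e and Ms4a1, and the list summed to 0.82 to 4.73 CPM in KO-labelled and 0.50 to 1.09 CPM in WT-labelled libraries. Only Cd4 of this list was tested, and it rose, with 129 reads in KO-labelled and 2 reads in WT-labelled libraries. Of 10 mast cell and basophil markers 5 had no read, and the list summed to 11.6 to 13.6 CPM in KO-labelled and 21.1 to 36.4 CPM in WT-labelled libraries. Among the 9 neutrophil markers measured, 4 stayed under 1 CPM, and the list summed to 12.4 to 33.3 CPM in KO-labelled and 46.2 to 472 CPM in WT-labelled libraries, mostly Mmp8 in the WT-labelled ones. The markers did not all follow that sum: of 5 tested, 1 rose, 1 fell and 3 did not pass (median log2 fold change 0.50). Ngp went the other way, with 217 reads in KO-labelled and 3 reads in WT-labelled libraries. In KO-labelled libraries, erythroid markers summed to at most 1.56 CPM, eosinophil markers to 1.80 CPM, megakaryocyte markers to 1.13 CPM and dendritic cell markers to 25.6 CPM. In WT-labelled libraries, erythroid markers summed to at most 1.89 CPM, eosinophil markers to 2.35 CPM, megakaryocyte markers to 41.4 CPM and dendritic cell markers to 46.4 CPM. The dendritic cell list went both ways: of 3 tested, 1 rose (H2-Ab1), 1 fell (Flt3) and 1 did not pass. H2-Ab1 averaged 10.3 CPM in KO-labelled and 1.41 CPM in WT-labelled libraries, and Flt3 0.84 and 21.2 CPM. The fibroblast and endothelial list summed to 99.5 to 229 CPM in KO-labelled and 261 to 357 CPM in WT-labelled libraries, nearly all from Pecam1 and Vwf, which blood cells also express. Col1a2, Col3a1 and Cdh5 stayed under 1 CPM, but Col1a1 and Pdgfrb reached 1 CPM in some library. Of the 7 genes in this list 4 were tested, of which 1 rose, 1 fell and 2 did not pass. Over all tested genes 13.7% were called higher and 13.7% lower. Of 7 progenitor markers 1 rose (Hoxa9) and 5 fell, with summed levels of 774 to 791 CPM in KO-labelled and 1855 to 2273 CPM in WT-labelled libraries.

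Other NLR-family sensors went both ways. Of 13 listed 11 were tested, of which 3 rose (Nlrx1, Nlrc3 and Naip1), 2 fell (Nod1 and Nlrc5) and 6 did not pass. Their median log2 fold change was 0.06. Here and for each list below, the shares over all tested genes were 13.7% higher and 13.7% lower. With replicates 2 and 3 alone, 3 of 12 tested rose and 6 fell, against 25.8% of all genes higher and 27.1% lower. Nlrx1, a mitochondrial NLR, had 45.9, 35.0 and 31.2 CPM in KO-labelled libraries, against 1.34, 1.67 and 1.24 CPM in WT-labelled libraries, and rose by 4.72 on the log2 scale (SE 0.24, adjusted p = 4.7e-05 by edgeR). Naip1, the mouse sensor of the secretion needle protein, averaged 8.21 CPM in KO-labelled and 1.13 CPM in WT-labelled libraries, though 44.3% of its words occur in other genes. The Naip1 and Nlrc5 calls were lost when any 1 library other than WT-labelled replicate 1 was left out (adjusted p 0.078 to 0.14 and 0.052 to 0.070).

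In the AIM2-like cluster, the family of nucleic acid binding proteins around Aim2, 5 of 10 listed genes were tested, of which 1 rose (Pyhin1) and 2 fell (Ifi203 and Mndal; median −1.36). Ifi203 averaged 1.60 CPM in KO-labelled and 44.8 CPM in WT-labelled libraries (adjusted p = 0.0015 by edgeR), but 21.9% of its words, 28.7% of those of Mndal and 47.2% of those of Pyhin1 occur in other genes, so these values are uncertain. Pyhin1 failed the test on leaving out any 1 of the KO-labelled libraries or WT-labelled replicate 3 (adjusted p 0.077 to 0.10).

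Of 20 tested genes that control NLRP3 and caspase-1, 1 rose, 3 fell (Serpinb1a, Hdac6 and Nek7) and 16 did not pass (median −0.18). With only replicates 2 and 3, 2 rose and 10 fell, where 25.8% of all tested genes were higher and 27.1% lower. Nek7, the kinase that binds NLRP3 during its assembly, had 63.6, 60.7 and 61.5 CPM in KO-labelled libraries, against 82.4, 89.7 and 91.2 CPM in WT-labelled libraries (adjusted p = 0.013 by edgeR). Leaving out KO-labelled replicate 2 ended the call of Nek7 (adjusted p = 0.087) and of Hdac6 (0.058), and leaving out KO-labelled replicate 3 that of Nek7 (0.077).

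Guanylate-binding proteins and related GTPases include some, but not all, that expose bacterial lipopolysaccharide to caspase-11. Of 10 tested, 3 rose (Gbp2, Gbp4 and Gbp6), 2 fell (Irgm2 and Gm12250) and 5 did not pass (median 0.97). Gbp2 had 26.4, 15.7 and 13.1 CPM in KO-labelled libraries, against 4.09, 9.36 and 7.70 CPM in WT-labelled libraries (log2 fold change 1.39, SE 0.38, adjusted p = 0.035 by edgeR). Gbp6 shares 74.3% of its words with other genes, and Gbp4 had only 82 reads in KO-labelled and 2 reads in WT-labelled libraries, a ratio of 40.7 (95% counting interval 10.9 to 341). Calls were lost for Gbp2 when KO-labelled replicate 1 or 2 or WT-labelled replicate 2 or 3 was left out (adjusted p 0.054 to 0.12), for Gbp4 without KO-labelled replicate 2 (0.0505) and for Irgm2 without KO-labelled replicate 2 or 3 (0.071 and 0.068).

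**Figure D4:**
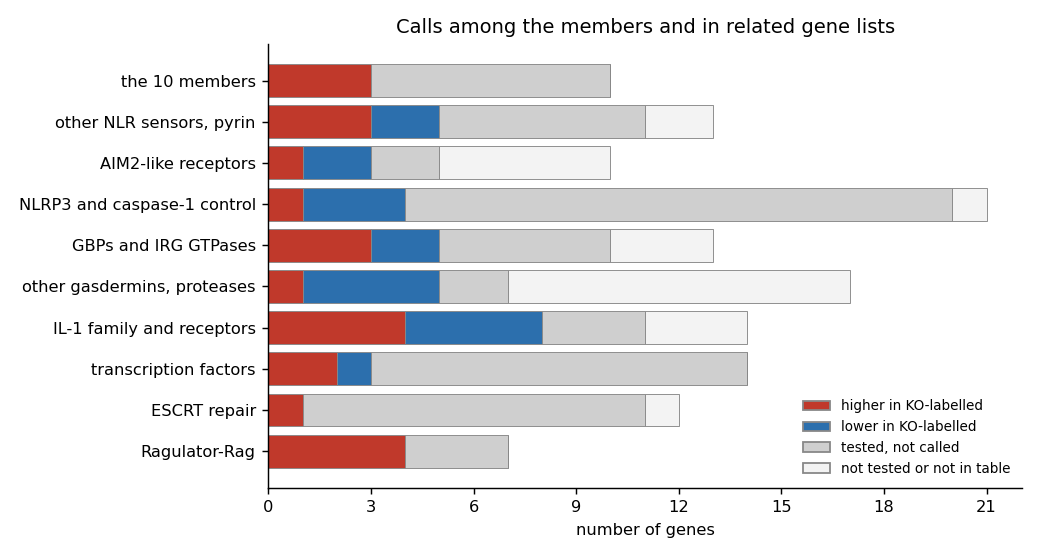
Number of genes called higher (red), called lower (blue), tested without a call (grey) and not tested (white) among the 10 inflammasome and pyroptosis genes and in 9 related lists, KO-labelled against WT-labelled in all 6 libraries. The IL-1 family list holds 4 higher and 4 lower calls among 11 tested genes, and the Ragulator-Rag list 4 higher and 0 lower among 7. Over all tested genes 13.7% were called higher and 13.7% lower.

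Most other gasdermin genes were nearly silent: of 17 listed other gasdermins, gasdermin-cutting proteases and Ninj2, 10 stayed under 1 CPM in every library and were not tested. Of the 7 tested, 1 rose (Gsdme), 4 fell (among them Gzmb and Ctsg) and 2 did not pass (median −0.83). Gsdme, listed as Dfna5, encodes another pore-forming gasdermin and had 6.53, 4.24 and 4.48 CPM in KO-labelled libraries, against 0.29, 0.98 and 0.70 CPM in WT-labelled libraries (log2 fold change 2.97, SE 0.48, adjusted p = 0.0048 by edgeR). Gzmb, a granzyme gene, had 0 reads in KO-labelled and 106 in WT-labelled libraries, at least 12.4-fold lower against a floor of 3 counts per library. The Ctsg call was lost without KO-labelled replicate 2 or 3 or WT-labelled replicate 2 (adjusted p 0.054 to 0.059).

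The cytokine genes whose products caspase-1 matures had few reads. Il1b had 9.24, 8.48 and 9.13 CPM in KO-labelled libraries, against 0.17, 2.41 and 2.14 CPM in WT-labelled libraries, with a log2 fold change of 2.53 (SE 0.74, adjusted p = 0.044 by edgeR). Il18 was filtered out, with 1.17, 0.17 and 0.18 CPM in KO-labelled and 0.083, 0.29 and 1.29 CPM in WT-labelled libraries. Over the IL-1 family with its receptors, 4 of 11 tested genes rose (Il1b, Il1a, Il1rn and Il1rap), 4 fell (Il18r1, Il18rap, Sigirr and Il1f9) and 3 did not pass (median −0.39). Both chains of the IL-18 receptor were thus among the genes that fell: Il18rap had 18.9, 31.6 and 31.9 CPM in KO-labelled libraries, against 82.8, 117 and 121 CPM in WT-labelled libraries (adjusted p = 0.0017 by edgeR). The Il1b and Il1f9 calls were lost when any 1 library other than WT-labelled replicate 1 was left out (adjusted p 0.080 to 0.12 and 0.11 to 0.12), and Il1a failed on leaving out any 1 of the KO-labelled libraries or WT-labelled replicate 3 (0.069 to 0.091).

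Among 14 transcription factors known to control inflammasome genes 2 rose (Cebpb and Irf4), 1 fell (Irf2) and 11 did not pass (median 0.13). Cebpb, whose product induces Casp4 in mouse macrophages, had 324, 264 and 249.7 CPM in KO-labelled libraries, against 36.7, 105 and 72.8 CPM in WT-labelled libraries (log2 fold change 1.97, SE 0.36, adjusted p = 0.0077 by edgeR). Irf8, which is needed for Naip and Nlrc4 transcription in mouse macrophages, had 193, 150.1 and 147 CPM in KO-labelled libraries, against 62.6, 212 and 197 CPM in WT-labelled libraries, and was not called (log2 fold change 0.05, adjusted p = 0.94 by edgeR). Its log2 fold change turned to −0.48 in replicates 2 and 3 alone, a call there (adjusted p = 0.0019). Irf2, which drives Gsdmd transcription in the mouse, averaged 43.5 CPM in KO-labelled and 66.2 CPM in WT-labelled libraries (adjusted p = 0.022), a call lost without KO-labelled replicate 2 or 3 or WT-labelled replicate 2 or 3 (0.069 to 0.10).

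**Figure D5:**
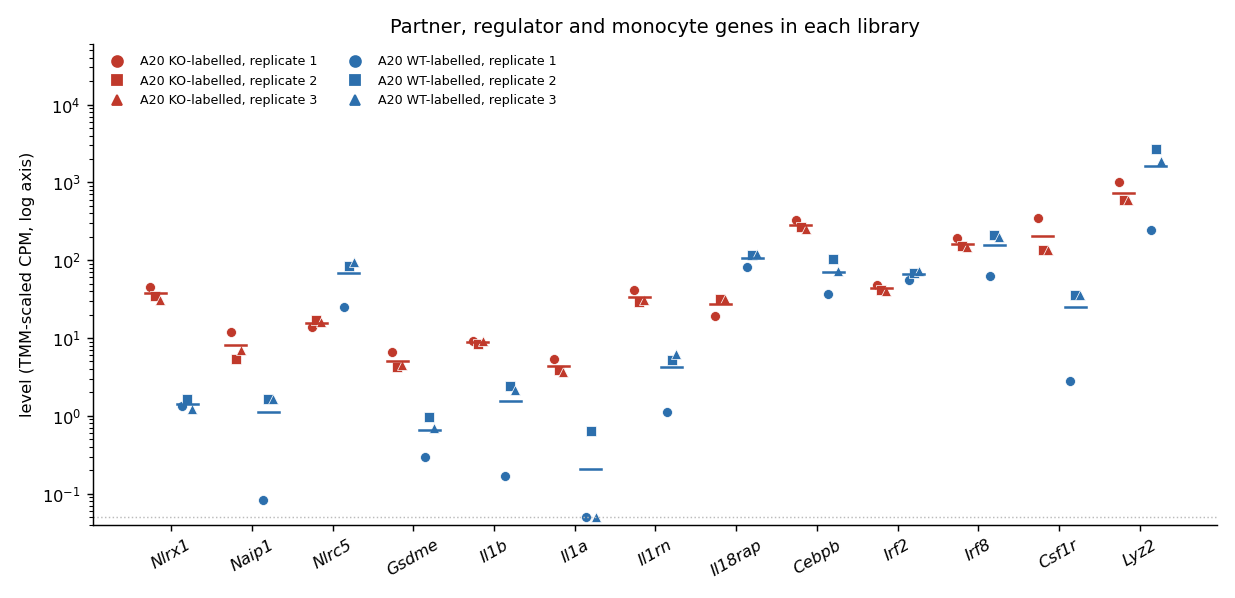
Levels (TMM-scaled CPM, log axis) of 13 partner, regulator and monocyte genes in the 3 KO-labelled (red, left) and 3 WT-labelled (blue, right) libraries; bars are group means and points on the dotted line are libraries with no read. Il1b sits between 8.48 and 9.24 CPM in KO-labelled libraries and at most 2.41 CPM in WT-labelled libraries, whereas the Irf8 and Lyz2 values of the groups overlap.

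The last lists act after gasdermin D is cut. Mouse macrophages need the Ragulator-Rag genes for gasdermin D pores to assemble. Of 7, 4 rose (Lamtor1, Lamtor2, Lamtor5 and Rragc), 0 fell and 3 did not pass (median 0.72). Over all tested genes 13.7% rose and 13.7% fell. At an unadjusted p under 0.05, by DESeq2 or by limma-voom, 0 of the 7 were lower. The shares of all tested genes lower there were 20.3%, 16.7% and 12.9%, so with 7 genes a count of 0 is not far from them. Lamtor2 had 83.9, 85.5 and 77.4 CPM in KO-labelled libraries, against 52.4, 40.6 and 35.8 CPM in WT-labelled libraries (log2 fold change 0.94, SE 0.16, adjusted p = 0.0061 by edgeR). Lamtor5 failed the test on leaving out KO-labelled replicate 1, 2 or 3 (adjusted p 0.052 to 0.063) and Rragc on leaving out WT-labelled replicate 2 (0.051). Other genes share 30.2% of the words of Lamtor1, 18.6% of those of Lamtor5 and 7.92% of those of Rragc. The Lamtor1 and Lamtor5 values are therefore less certain than that of Lamtor2, which shares 0%. Of 11 tested ESCRT genes, which shed membrane that carries gasdermin pores, 1 rose (Chmp1a), 0 fell and 10 did not pass (median 0.22). Again 0 were lower at an unadjusted p under 0.05, by DESeq2 or by limma-voom, beside the same shares of all tested genes. The Chmp1a call was lost without KO-labelled replicate 2 or WT-labelled replicate 2 or 3 (adjusted p 0.054 to 0.080).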

How the data were processed

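Stranded mRNA libraries of 6 samples were sequenced, per the labels' protocols. Per the submitters' processing notes, the tools were FastQC 0.11.7, HISAT2 2.0.5 and featureCounts 1.5.2 and the build mm10; the annotation was not given in the sources used here, nor was the strand option. The authors deposited raw counts per gene and library, without normalization. From these, the KO-labelled minus WT-labelled contrast was computed in R 4.3.3 with edgeR 4.0.16 (TMM, default low-count filter, robust quasi-likelihood test, Benjamini-Hochberg adjustment over 12126 genes at 0.05). It was also tested on simulated data, where DESeq2 made a larger share of false calls than edgeR or limma-voom but found more of the 2-fold changes. SEs are the log2 fold change divided by the square root of F. Intervals on read counts cover counting error only, as do floors. The 10 genes and all lists were chosen with earlier results of these data known; up to 8 called genes per list in order of p, or the 2 most abundant where none was called, were to be named, with any markers needed. Casp12, Irf8, Il18, P2rx7 and Txnip were named after their values were seen. A few genes of the related lists are counted but not reported by name here. Alternatives were other scalings, no low-count filter, DESeq2 1.42.0, limma-voom (limma 3.58.1), non-robust dispersion, a replicate block, leaving out each library, replicates 2 and 3 alone, and summed replicates. Positions and exon lengths came from GENCODE M21 and 31-base word sharing was computed from its transcripts in Python 3.11.15.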

Additional observations from a re-analysis of the deposited data

How the results depend on the processing

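Over all tested genes, 1660 were higher and 1656 lower in KO-labelled libraries. With a replicate block 989 were higher and 1034 lower, with replicates 2 and 3 alone 3149 and 3309, with those replicates summed in each group 543 and 518, and with only KO-labelled replicates 2 and 3 summed, a setting added after the data were seen, 982 and 945. Leaving out each library gave 939 to 2712 higher and 916 to 2568 lower. Of the 10 inflammasome genes 3 were higher and 0 lower; DESeq2 gave 5 higher, replicates 2 and 3 alone 5 higher and 3 lower, and leaving out each library 2 to 5 higher and 0 to 3 lower. Nlrc4 and Naip2 kept their call in all 17 alternatives and Ninj1 in 15. The Tnfaip3 call was kept throughout. The deviations of same-numbered replicates from their group means were nearly uncorrelated over all tested genes (−0.01, −0.06 and 0.05), though Gapdh was high in both replicate 1 libraries, so the numbers were not taken to pair the libraries; under the block 3 of the 10 genes were called. Of 38 called genes in the related lists, 25 kept their call under the block, 11 with replicates 2 and 3 summed in each group, and 35 to 38 under the other tools, scalings and filters. Replicates 2 and 3 alone called 27 more genes of the related lists, and in 3 of these the sign turned: the P2rx7 log2 fold change was −0.85, the Txnip log2 fold change −0.35 and the Irf8 log2 fold change −0.48. The cause was not tested. Depth limited genes under about 1 CPM, most of which the filter removed.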
